A study of Rattus norvegicus with 6 samples.

Results

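The antiviral interferon-stimulated genes were examined in primary neonatal cardiomyocytes treated with recombinant human cardiotrophin 1 (hCT1), a cytokine of the interleukin-6 family. The list held 54 genes: effector proteins that block virus replication, the enzymes that attach or remove the ubiquitin-like protein ISG15, cytosolic sensors, and the receptor chains for interferons. A gene was taken as measured when the platform annotation paired a probe set with exactly 1 symbol and that symbol was on the list, and the probe set with the highest mean over all 6 samples stood for the gene. By this rule 48 of the 54 genes were measured, among 14506 genes in all, and no filter on low values was applied. Ifnar2, Parp10, Parp12, Parp14, Pml and Xaf1 were not analysed here.

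Total RNA was taken from ventricular cardiomyocytes of 2-day-old Sprague-Dawley rats after 24 h with hCT1 at 0.5 nM (3 samples) or with serum-free medium alone as control (3 samples). All cells had first been kept in serum-free medium for up to a day. Each sample was hybridised to 1 Affymetrix whole-transcript rat array, and the values are log2 values made by RMA, so that a difference of 1 is a change of 2-fold. Of the records of these samples, those on growth mention an agonist of hypertrophy in the medium of all 6, controls included, and those on treatment give the controls serum-free medium without one; which of these held for the controls could not be settled here. Whether the 3 samples of a group came from separate cultures is not stated either, so that the p-values describe sample-to-sample spread that may be technical in origin.

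Interferons are secreted by infected cells and bind receptors on their neighbours. Type I interferon receptors signal through JAK1 and TYK2 to a complex that holds STAT2 and IRF9 and binds a promoter sequence called the interferon-stimulated response element (ISRE). The interferon-gamma receptor signals through JAK1 and JAK2, and its targets carry a different sequence, the gamma-activated site (GAS). Cytokines of the cardiotrophin family share the receptor chain gp130 and act mainly through JAK kinases and STAT3. Many interferon-stimulated genes are also expressed at a low level in cells that have met no virus.

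The samples were alike as a whole, with Pearson's r over all probe sets of 0.9969 to 0.9978 within groups and 0.9942 to 0.996 between groups. The cultures carried strong cardiomyocyte signal: Tnnt2 lay at percentile 98.6 and Actn2 at percentile 99.1 of control signal. Markers of other cells were present too, with the fibroblast gene Col1a1 at percentile 99.1 and the endothelial gene Pecam1 at percentile 59.4. Of the leukocyte genes, Lyz2 lay at percentile 67.1, Fcer1g at percentile 53.9 and Cd14 at percentile 51.5, and Ptprc at percentile 16.4. hCT1-treated and control samples were compared with limma over the 15310 probe sets with 1 symbol, and a gene was called when its Benjamini-Hochberg adjusted p was under 0.05. Over all genes, 1390 of 14506 were called lower with hCT1 (9.58%) and 739 were called higher (5.09%). After another round of quantile normalization these shares were 7.29% and 6.11%.

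Interferon-stimulated genes were lower with hCT1 more often than genes at large, while most families also held members that did not pass. Of the 48 measured genes, 18 were called lower (37.5%, beside 9.58% of all genes), 2 were called higher (4.17%, beside 5.09%) and 28 did not pass the test. The list was chosen with earlier results of these data known, so these shares describe the list and are not a test of it. The largest falls were those of Usp18 (3.37-fold lower), which removes ISG15 from proteins and restrains the type I receptor, and Mx2 (3.03-fold lower), a GTPase that blocks virus replication. The 2 called higher were Ifitm3, which hinders virus entry (1.26-fold), and Ifngr2, a chain of the interferon-gamma receptor (1.21-fold). The median log2 fold change was -0.14 over the 48 genes and 0 over all genes. Among the 28 genes that did not pass, the log2 fold change lay between -0.29 and 0.18.

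In 23 of the 48 genes every hCT1 sample lay below every control sample (20% of all genes did so), in 4 every hCT1 sample lay above (14.2% of all genes), and in 21 the groups overlapped. Relative to the control mean, the median over all 48 genes was -0.17 in hCT1 replicate 1, -0.15 in replicate 2 and -0.15 in replicate 3, against -0.03, 0.05 and -0.02 in control replicates 1, 2 and 3. Over the 18 genes called lower, whose direction the call fixes, it was -0.69, -0.52 and -0.63 in the hCT1 replicates. The SD of a gene within a group had a median of 0.0901 over the control samples and 0.0894 over the hCT1 samples. Of the 18 genes, 10 had a fall of at least 1.5-fold and 2 a fall of at least 2-fold. RNA was taken from whole cultures, in which fewer cells of a type and less RNA per cell cannot be told apart.

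**Figure D1:**
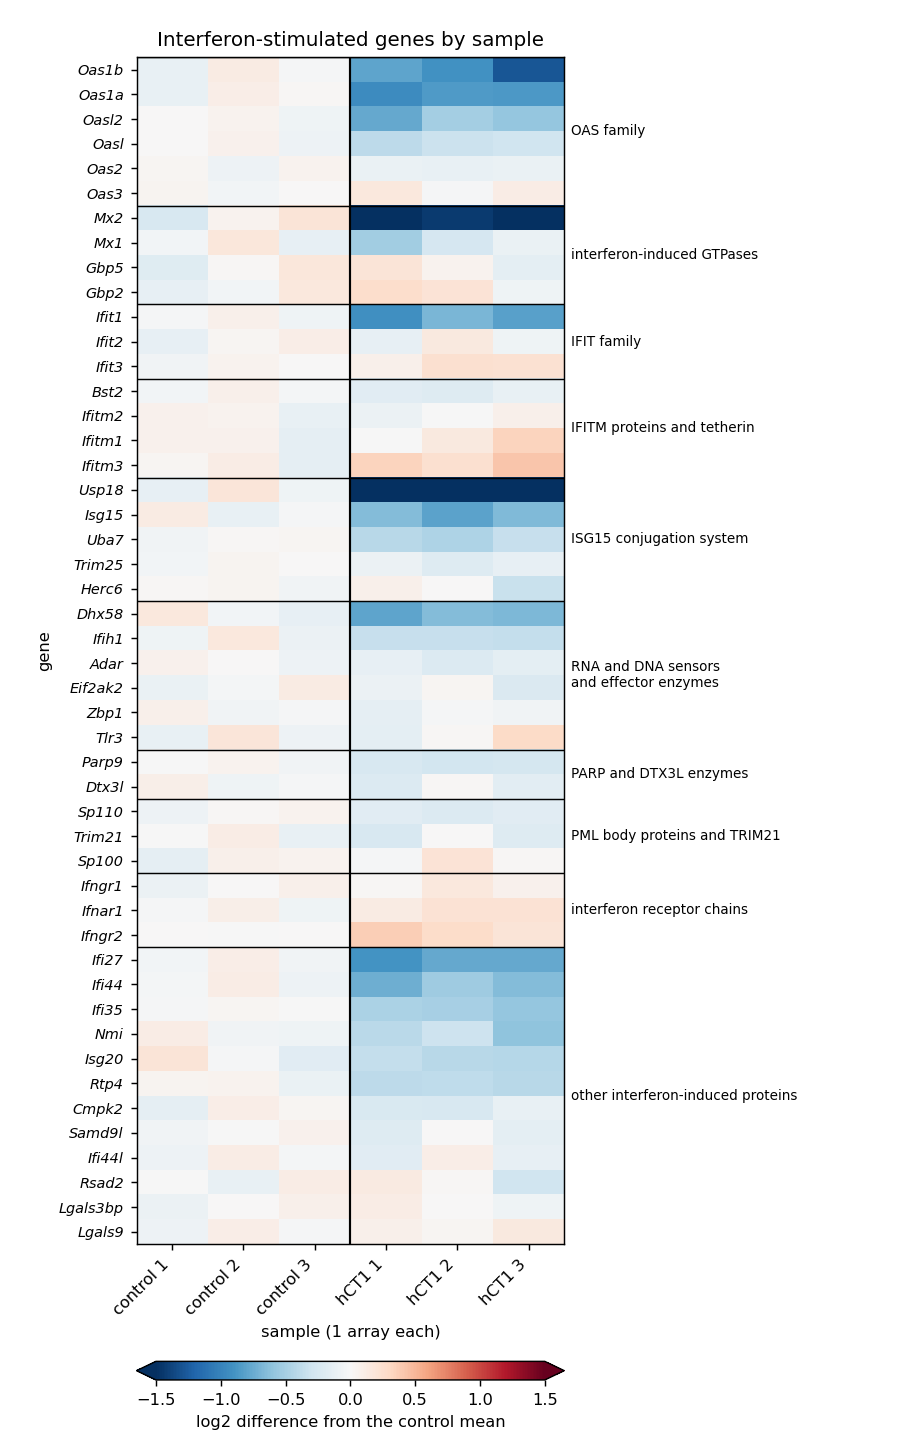
Colour gives the log2 RMA value of each of the 48 measured interferon-stimulated genes minus its control mean, with 1 column per sample (3 control, 3 hCT1-treated) and genes grouped by role; the colour scale ends at 1.5 in either direction. The deepest blue in the hCT1 columns belongs to Usp18 and Mx2, and every role group also holds genes with little colour.

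The active enzymes among the oligoadenylate synthetases and the genes like them (OAS family) make short oligoadenylates that activate the nuclease RNase L. Of 6 measured members, 4 were called lower (66.7%, beside 9.58% of all genes) and 0 higher (beside 5.09%). Oas1a was 5.74, 5.95 and 5.86 in the control samples and 4.90, 4.999 and 4.99 in the hCT1 samples, a log2 fold change of -0.89 (adjusted p = 6.15e-05, SE 0.07). Its paralog Oas1b was 4.66, 4.89 and 4.76 in control and 3.98, 3.87 and 3.48 with hCT1, a log2 fold change of -0.99 (adjusted p = 0.000908, SE 0.12). In both genes the groups lay apart, with the hCT1 samples of Oas1b the more spread. Oasl2 was 6.15, 6.20 and 6.08 in control and 5.37, 5.63 and 5.56 with hCT1 (-0.62, adjusted p = 0.000922, SE 0.08), and its neighbour Oasl fell by 0.34 on the log2 scale (adjusted p = 0.0061, SE 0.06). Oas2 and Oas3, which adjoin each other on chromosome 12 near Oas1a and Oas1b, did not pass. The log2 fold change of Oas3 was 0.08 (95% interval -0.06 to 0.23) and that of Oas2 was -0.10 (-0.23 to 0.03), with Oas2 at percentile 16.6 of control signal. Paralogs of this family may share probe signal.

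Of the interferon-induced GTPases, Mx2 was called lower and Mx1, Gbp2 and Gbp5 were not. Mx2 was 7.09, 7.38 and 7.53 in control and 5.59, 5.89 and 5.72 with hCT1, a log2 fold change of -1.60 (adjusted p = 4.6e-05, SE 0.11). The lowest control sample was still above the highest hCT1 sample by more than the whole range of either group. Mx1 was 3.61, 3.83 and 3.53 in control and 3.14, 3.40 and 3.55 with hCT1, so that the groups overlapped (log2 fold change -0.29, adjusted p = 0.111, SE 0.11). In control samples Mx1 lay at percentile 16.2 of signal and Mx2 at percentile 58.2, so the Mx1 values may be background. The guanylate-binding proteins Gbp2 and Gbp5, which act against intracellular microbes, had log2 fold changes of 0.14 (95% interval -0.09 to 0.36) and 0.03 (-0.21 to 0.27).

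The IFIT proteins bind viral RNA and hold back its translation. Ifit1 was 4.81, 4.91 and 4.77 in control and 3.91, 4.15 and 4.02 with hCT1 (log2 fold change -0.80, adjusted p = 0.000184, SE 0.07). The other 2 genes of the family, near it on chromosome 1, did not pass. Ifit3 was 4.79, 4.90 and 4.85 in control and 4.92, 5.08 and 5.08 with hCT1, each hCT1 sample above each control sample (log2 fold change 0.18, adjusted p = 0.0955). Ifit2 was 6.92, 7.06 and 7.14 in control and 6.92, 7.19 and 6.97 with hCT1, with overlapping groups (-0.02, 95% interval -0.21 to 0.18).

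ISG15 is joined to target proteins by the E1 enzyme UBA7 and by ligases such as TRIM25, and in mice HERC6, and is taken off again by USP18. Of the 5 genes of this system, 3 were called lower (60%, beside 9.58% of all genes) and 0 higher (beside 5.09%). Usp18 was 6.56, 6.86 and 6.61 in control and 4.62, 4.98 and 5.16 with hCT1, a log2 fold change of -1.75 (adjusted p = 5.87e-05, SE 0.13). Its hCT1 samples were the most spread of all 48 genes (SD 0.28), and the groups were nonetheless far apart. Isg15 itself was 5.98, 5.74 and 5.84 in control and 5.21, 5.04 and 5.19 with hCT1, a log2 fold change of -0.71 (adjusted p = 0.000505, SE 0.08). Uba7 was 6.16, 6.23 and 6.24 in control and 5.79, 5.75 and 5.87 with hCT1, a log2 fold change of -0.41 (adjusted p = 0.00207, SE 0.06). The modifier, its activating enzyme and its protease thus each had lower values in every hCT1 sample than in any control sample. Trim25 (log2 fold change -0.14, 95% interval -0.27 to -0.01, adjusted p = 0.14) and Herc6 (-0.09, -0.31 to 0.14) did not pass.

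**Figure D2:**
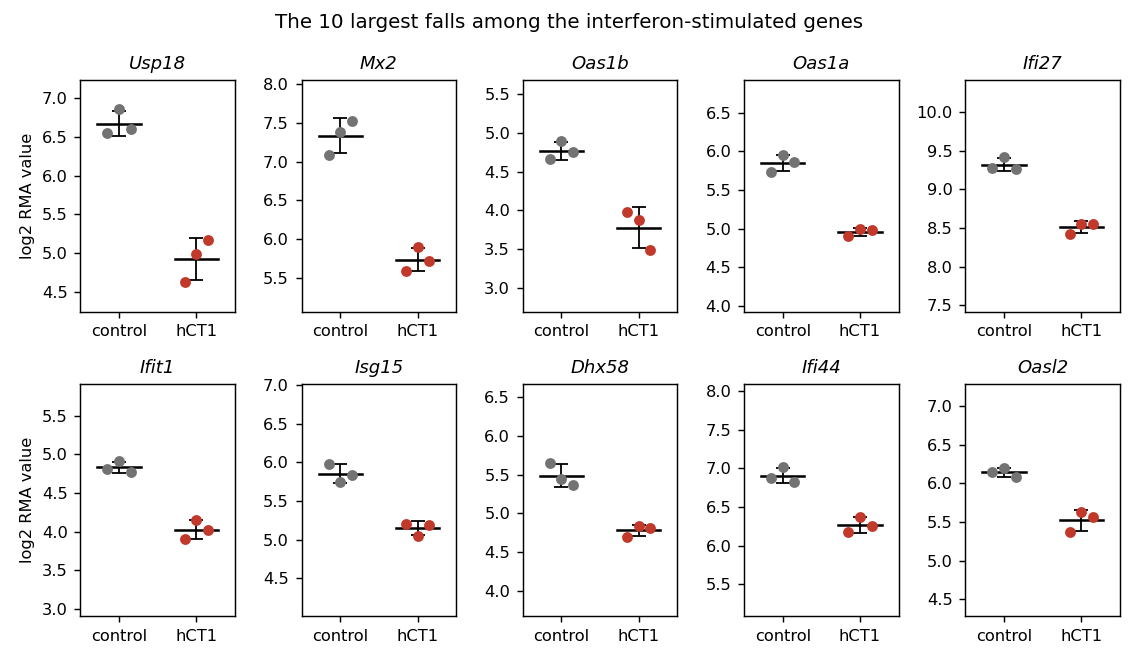
The log2 RMA value is plotted for the 10 genes with the largest falls, with grey points for the 3 control samples and red points for the 3 hCT1-treated samples; horizontal lines are means and error bars the SD, and every panel spans 3 log2 units. The groups do not overlap in any panel, and the gap is widest for Usp18 and Mx2.

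Among the sensors, both cytosolic RNA helicases of the list fell. Dhx58, which encodes LGP2, was 5.65, 5.44 and 5.36 in control and 4.70, 4.83 and 4.81 with hCT1 (log2 fold change -0.70, adjusted p = 0.000681, SE 0.08). Ifih1, which encodes the double-stranded RNA sensor MDA5, was 7.23, 7.45 and 7.20 in control and 6.95, 6.95 and 6.94 with hCT1 (-0.34, adjusted p = 0.0143, SE 0.07). The remaining members of the group did not pass. These were the RNA-activated kinase gene Eif2ak2 (-0.09, 95% interval -0.28 to 0.09), the RNA-editing enzyme gene Adar (-0.16, -0.29 to -0.02, adjusted p = 0.109), the nucleic acid sensor gene Zbp1 (-0.07) and the endosomal receptor gene Tlr3 (0.05, -0.20 to 0.31). Zbp1 lay at percentile 27.2 of control signal.

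Of the proteins that act at membranes, Ifitm3 was called higher and the other 3 did not pass. Ifitm3 was 10.42, 10.50 and 10.25 in control and 10.72, 10.63 and 10.81 with hCT1 (log2 fold change 0.33, adjusted p = 0.0214, SE 0.08). The groups lay apart, but the call was lost without control replicate 1 (log2 fold change 0.34, adjusted p = 0.0526), without hCT1 replicate 1 (0.33, adjusted p = 0.0607) or without hCT1 replicate 3 (0.29, adjusted p = 0.0723), and with the replicate number as a block (adjusted p = 0.0534). Its nearby paralogs Ifitm1 and Ifitm2, with which it may share probe signal, had log2 fold changes of 0.16 (95% interval -0.05 to 0.37) and -0.01 (-0.17 to 0.15). Bst2, which encodes the tetherin that holds budding virions on the cell, was 4.19, 4.32 and 4.20 in control and 4.06, 4.04 and 4.12 with hCT1 (-0.16, adjusted p = 0.111).

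Of the 3 receptor chains measured, 1 was called higher (33.3%, beside 5.09% of all genes) and 0 lower (beside 9.58%). Ifngr2 was 9.08 in each of the 3 control samples and 9.45, 9.36 and 9.28 with hCT1 (log2 fold change 0.28, adjusted p = 0.0159, SE 0.06). This call was lost without control replicate 2 (0.28, adjusted p = 0.0554), without hCT1 replicate 1 (0.23, adjusted p = 0.0583) or without hCT1 replicate 2 (0.28, adjusted p = 0.0501). Ifnar1, a chain of the type I receptor, was 8.61, 8.72 and 8.57 in control and 8.75, 8.85 and 8.85 with hCT1, apart but not past the test (0.18, 95% interval 0.04 to 0.32, adjusted p = 0.0819). Ifngr1, which binds interferon-gamma, was 9.58, 9.67 and 9.75 in control and 9.68, 9.82 and 9.73 with hCT1, with overlapping groups (0.08, -0.07 to 0.23).

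PARP9 and DTX3L form a complex that modifies histones and viral proteins. Parp9 was 7.22, 7.28 and 7.17 in control and 6.98, 6.95 and 6.95 with hCT1 (log2 fold change -0.26, adjusted p = 0.0137, SE 0.06), the smallest of the 18 falls. It did not pass without control replicate 2 (-0.23, adjusted p = 0.0609) or without hCT1 replicate 2 (-0.26, adjusted p = 0.0502). Dtx3l, its adjacent gene, had a log2 fold change of -0.11 (95% interval -0.28 to 0.05). Of the nuclear body genes and Trim21, an antibody receptor of the cytosol, 0 of 3 passed: Sp110 was at -0.18 (-0.31 to -0.05, adjusted p = 0.0649), Trim21 at -0.14 (-0.33 to 0.04) and Sp100 at 0.07 (-0.11 to 0.25).

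Of the 12 other interferon-induced genes measured, 6 were called lower (50%, beside 9.58% of all genes) and 0 higher (beside 5.09%). Ifi27, a mitochondrial and nuclear envelope protein, was 9.28, 9.41 and 9.26 in control and 8.42, 8.56 and 8.55 with hCT1, a log2 fold change of -0.81 (adjusted p = 8.96e-05, SE 0.07). It stood at percentile 86.5 of control signal, the highest of the 18 genes that fell. Ifi44 was 6.88, 7.01 and 6.82 in control and 6.17, 6.37 and 6.25 with hCT1 (-0.64, adjusted p = 0.000692, SE 0.07). The products of Ifi35 and Nmi bind each other, and both genes fell in every hCT1 sample. Ifi35 was 6.03, 6.07 and 6.04 in control and 5.57, 5.54 and 5.46 with hCT1 (-0.52, adjusted p = 0.000468, SE 0.06). Nmi was 5.47, 5.31 and 5.28 in control and 4.94, 5.05 and 4.75 with hCT1 (-0.44, adjusted p = 0.00993, SE 0.08), at percentile 36.8 of control signal. Rtp4 had a log2 fold change of -0.40 (adjusted p = 0.00299), at percentile 20.9 of control signal. Isg20, which encodes a nuclease that degrades viral RNA, was 7.38, 7.16 and 7.02 in control and 6.83, 6.77 and 6.76 with hCT1 (-0.40, adjusted p = 0.0157, SE 0.09). It did not pass without hCT1 replicate 2 (-0.39, adjusted p = 0.0515) or without hCT1 replicate 3 (-0.38, adjusted p = 0.052).

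The remaining 6 of these genes did not pass. Rsad2, which encodes viperin and is among the genes most strongly induced by interferon in many cells, was 5.34, 5.23 and 5.46 in control and 5.48, 5.37 and 5.04 with hCT1, with overlapping groups (log2 fold change -0.05, 95% interval -0.29 to 0.20). Cmpk2, the adjacent gene, encodes a nucleotide kinase and had a log2 fold change of -0.19 (-0.36 to -0.02, adjusted p = 0.118). Samd9l (-0.11), Ifi44l (-0.06), the secreted glycoprotein gene Lgals3bp (0.02) and the galectin gene Lgals9 (0.08) had 95% intervals that included 0. Lgals9 had a second, dimmer probe set, which did not pass either (0.15, adjusted p = 0.118). Control signal lay below the 40th percentile in 16 of the 48 genes, 5 of them called lower and 11 that did not pass, so the values of these genes may be near background and their changes understated.

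**Figure D3:**
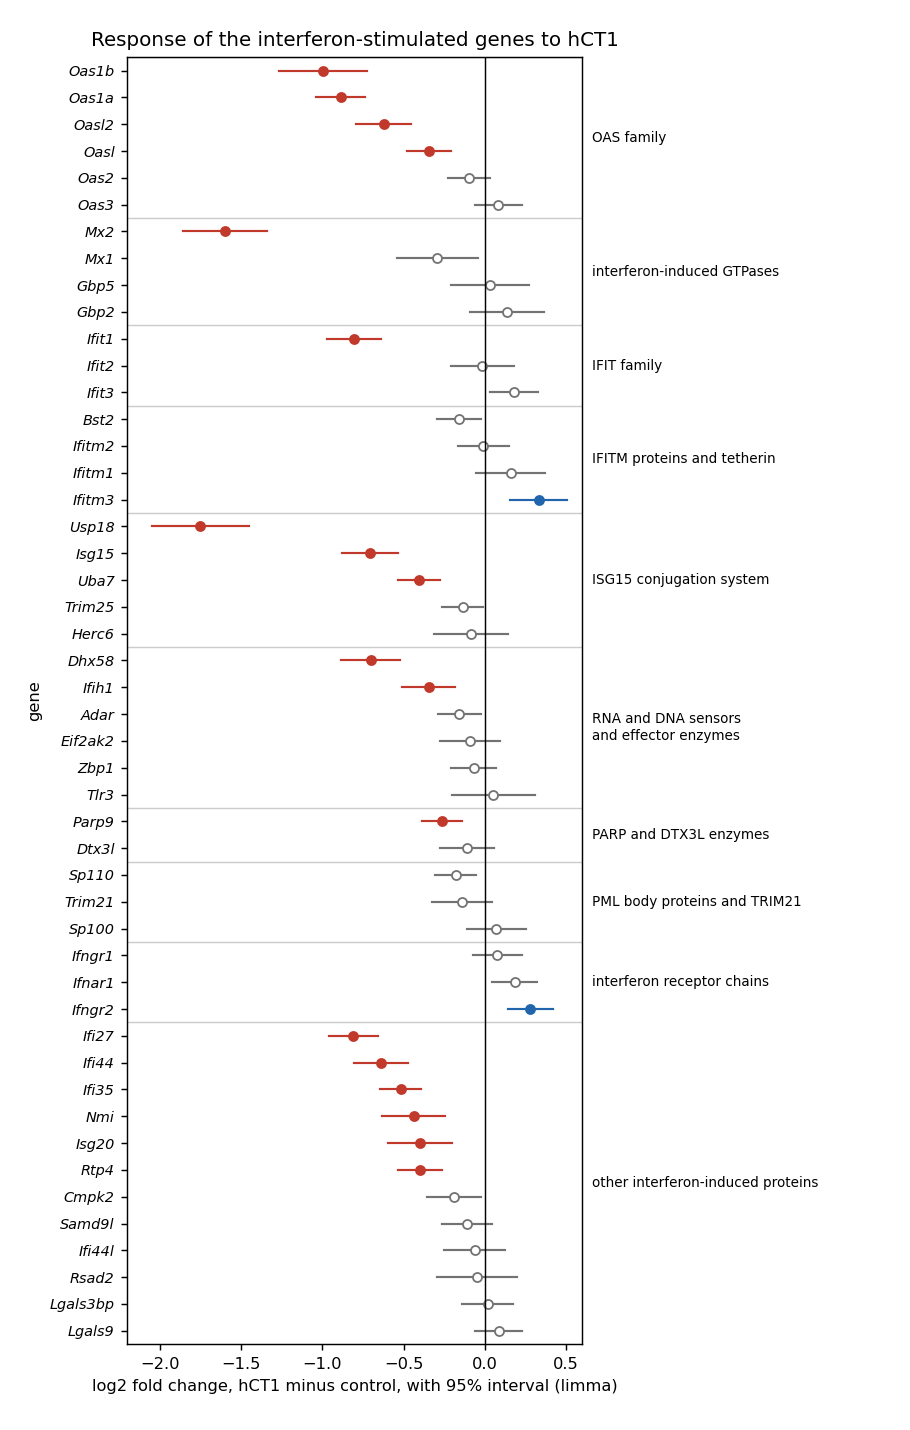
Points give the log2 fold change of each measured interferon-stimulated gene, hCT1 minus control (3 samples each), with its 95% interval from limma; red and blue filled points were called lower and higher at an adjusted p under 0.05, and open grey points did not pass. Of 48 genes, 18 are red and 2 blue, and the OAS, MX and IFIT families each hold both red and open points.

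Most promoters of the list held the core of an ISRE, whether or not the gene fell. The windows ran from 250 bases before to 50 bases after the annotated gene start (RefSeq, assembly GRCr8), and 36 of the 48 genes had one. The core was searched on both strands as a pair of GAAA tetramers with any 2 bases between them, which read on the reverse strand as a pair of TTTC tetramers with the same spacing, and matches could overlap each other. It was present in 23 of the 36 promoters (63.9%), against 3.92% of all 33469 promoters of the same length. Among genes called lower 8 of 12 promoters held it, and among genes that did not pass 14 of 22. The GAS core TTCNNNGAA, with N for any base, which reads the same on both strands, was present in 5 of 36 promoters (13.9%) against 8.87% of all promoters, and overlapped the ISRE match in Bst2. Among the 11968 promoters of genes tested here, the ISRE core was found in 3.41% and the GAS core in 7.59%. Of these genes, those called lower held the ISRE core in 3.75% of promoters and those called higher in 3.66%. The genes without an entry in the table were Oas2, Mx2, Ifit1, Ifit2, Ifitm1, Isg15, Usp18, Dhx58, Zbp1, Adar, Rtp4 and Samd9l.

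For the 8 genes that fell, the match nearest upstream of the gene start is shown with up to 20 bases on either side, so that the element can be compared with that of genes that did not fall. The sequences run in the direction of the gene, end before the gene start, and carry the ISRE core in capitals.
Oas1a (chr12:41330405-41330460, strand +): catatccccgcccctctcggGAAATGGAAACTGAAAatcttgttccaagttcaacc
Oas1b (chr12:41395876-41395931, strand -): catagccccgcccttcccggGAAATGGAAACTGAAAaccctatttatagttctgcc
Ifi27 (chr6:128355208-128355257, strand +): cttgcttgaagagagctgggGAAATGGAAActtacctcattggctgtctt
Ifi44 (chr2:243303841-243303886, strand -): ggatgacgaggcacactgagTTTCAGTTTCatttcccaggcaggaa
Oasl2 (chr12:47383307-47383356, strand -): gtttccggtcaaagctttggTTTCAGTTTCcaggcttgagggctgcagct
Nmi (chr3:56848614-56848663, strand -): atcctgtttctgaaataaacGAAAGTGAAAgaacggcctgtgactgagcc
Isg20 (chr1:142239947-142239996, strand +): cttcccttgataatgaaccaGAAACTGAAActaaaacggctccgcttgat
Ifih1 (chr3:67683998-67684047, strand -): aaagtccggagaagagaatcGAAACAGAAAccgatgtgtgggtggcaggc
Oas1a and Oas1b share an extended element in which a pair of cores overlap, and Ifi44 and Oasl2 carry the core on the reverse strand.

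The same stretch follows for 4 genes that did not pass (Bst2, Rsad2, Oas3 and Ifit3) and for Ifitm3, which was called higher.
Bst2 (chr16:18255063-18255118, strand -): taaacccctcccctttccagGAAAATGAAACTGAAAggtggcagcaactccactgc
Rsad2 (chr6:48788238-48788287, strand -): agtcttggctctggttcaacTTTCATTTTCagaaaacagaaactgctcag
Oas3 (chr12:41439617-41439666, strand +): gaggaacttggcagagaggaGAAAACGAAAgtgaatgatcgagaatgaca
Ifit3 (chr1:241527262-241527311, strand +): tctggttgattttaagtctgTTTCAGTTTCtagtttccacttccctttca
Ifitm3 (chr1:205541773-205541822, strand -): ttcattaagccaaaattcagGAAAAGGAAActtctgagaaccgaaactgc
Rsad2 and Ifit3 carry the core on the reverse strand. Bst2, with a log2 fold change of -0.16, also holds overlapping cores, as Oas1a and Oas1b do. A match of letters is not a measured binding site, and binding was not measured here.

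**Figure D4:**
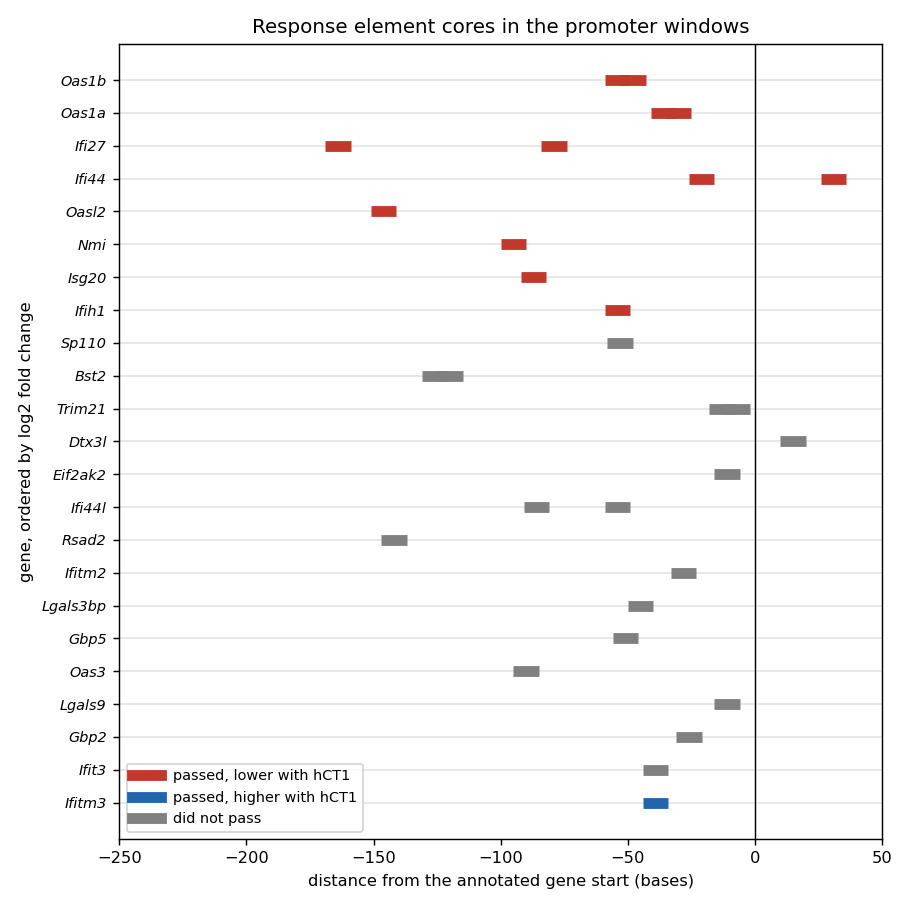
Bars mark each match to the ISRE core along the promoter windows of 23 interferon-stimulated genes, by distance from the annotated gene start in bases, with genes ordered from the most negative log2 fold change at the top. Red, grey and blue bars, for genes called lower, not passed and called higher, are interspersed along the windows.

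Other genes of the interferon pathway were examined beside the effectors, from 6 lists. These held ligands, signal transducers with their inhibitors, regulatory factors, sensing genes, chemokines and antigen presentation targets. Shares over all 6 lists thus pool genes that carry the signal with genes that restrain it or respond to it. Of 75 genes on these lists, 52 were measured. Among the 52, 4 were called lower (7.69%, beside 9.58% of all genes) and 7 higher (13.5%, beside 5.09%), and the median log2 fold change was 0.03. Of 13 interferon ligand genes listed, 5 were measured, and all 5 lay below the 40th percentile of control signal. They ranged from Ifng at percentile 10.1 to Ifna5 at percentile 36.2, with Ifnb1 at percentile 16.8. By limma, 0 of the 5 ligand genes passed in either direction, also at an unadjusted p under 0.05. Irf7, the transcription factor that amplifies type I responses, was 7.35, 7.43 and 7.35 in control and 6.48, 6.47 and 6.60 with hCT1 (log2 fold change -0.86, adjusted p = 3.92e-05, SE 0.06). The list of interferon regulatory factors held Irf2bp1, a partner of IRF2, and not Irf9. Of its 8 measured genes, 1 was called lower (Irf7, 12.5%, beside 9.58% of all genes) and 0 higher (beside 5.09%). Irf1 was at 0.06 (95% interval -0.08 to 0.21) and Irf3 at -0.06 (-0.24 to 0.12).

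Irf9 and Stat2, whose products act at the ISRE, had smaller, negative differences. Irf9 was 7.71, 7.76 and 7.49 in control and 7.24, 7.33 and 7.41 with hCT1 (log2 fold change -0.32, adjusted p = 0.0275, SE 0.08). The call was lost without control replicate 1 (-0.30, adjusted p = 0.09), control replicate 2 (-0.27, adjusted p = 0.098), hCT1 replicate 1 (-0.28, adjusted p = 0.0919) or hCT1 replicate 2 (-0.32, adjusted p = 0.0739), and with the replicate number as a block (adjusted p = 0.0572). Stat2 was 8.62, 8.63 and 8.60 in control and 8.52, 8.44 and 8.37 with hCT1, apart but not past the test (-0.17, adjusted p = 0.0784). Socs1, a feedback inhibitor of interferon receptors, was 6.95, 6.88 and 6.65 in control and 6.59, 6.45 and 6.60 with hCT1 (-0.28, adjusted p = 0.0539).

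Of 12 genes on the signal transducer list, 5 were called higher (41.7%, beside 5.09% of all genes) and 1 lower (8.33%, beside 9.58%), the latter being Irf9. This list also held inhibitors of signalling, among them Socs3 and Socs1. Socs3, a feedback inhibitor of gp130, was 6.74, 6.66 and 6.58 in control and 8.08, 8.005 and 7.98 with hCT1 (log2 fold change 1.36, adjusted p = 3.44e-06, SE 0.06), and Jak2 was 8.49, 8.34 and 8.54 in control and 9.21, 9.29 and 9.16 with hCT1 (0.77, adjusted p = 0.00017, SE 0.07). The other 3 called higher were Stat3 (0.28), the phosphatase gene Ptpn2 (0.28) and Il10rb (0.26), a receptor chain for type III interferons. Ptpn2 did not pass without control replicate 1 (0.27, adjusted p = 0.0941), control replicate 2 (0.25, adjusted p = 0.105), hCT1 replicate 1 (0.29, adjusted p = 0.0723) or hCT1 replicate 2 (0.23, adjusted p = 0.0975), nor with the replicate number as a block (adjusted p = 0.0696), and Il10rb did not pass without hCT1 replicate 1 (0.24, adjusted p = 0.0509). Jak1, used by all interferon receptors, had a log2 fold change of 0.16 (adjusted p = 0.12), and Ptpn1 (0.15), Pias1 (0.08), Ptpn6 (0.05), Stat2 and Socs1 did not pass either.

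**Figure D5:**
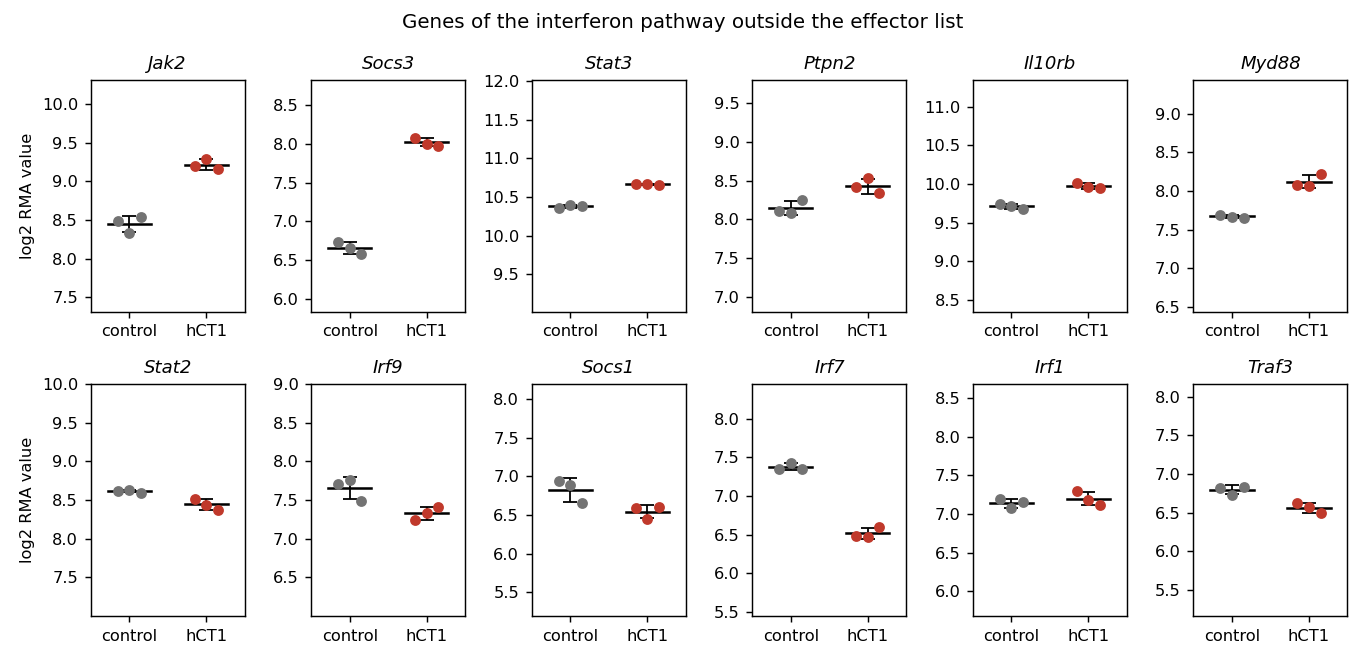
The log2 RMA value of 12 genes that encode signal transducers, regulators and adaptors is plotted for the 3 control samples (grey) and the 3 hCT1-treated samples (red), with means as lines and the SD as error bars; every panel spans 3 log2 units. Socs3 and Jak2 are higher and Irf7 lower with hCT1 by 0.77 to 1.36 in size, and the other genes differ by less.

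Of 12 interferon-gamma targets of antigen presentation, 1 was called lower (8.33%, beside 9.58% of all genes) and 0 higher, with a median of -0.04. The gene was Psmb10, which encodes a subunit of the immunoproteasome (-0.29); Psmb10 lost its call when control replicate 1 (-0.25, adjusted p = 0.0539) or, in its place, hCT1 replicate 2 (-0.26, adjusted p = 0.057) was left out. Of 6 interferon-induced chemokines, 1 was called higher (16.7%, beside 5.09% of all genes) and 0 lower. It was Cxcl11 (5.70, 5.53 and 5.57 in control, 7.67, 7.68 and 7.86 with hCT1, log2 fold change 2.14, adjusted p = 5.08e-07). Cxcl10 was at 0.01 (95% interval -0.17 to 0.19). Of 9 sensing and adaptor genes, the adaptor gene Myd88 was called higher (0.45, adjusted p = 0.00169) and Traf3 lower (-0.23, adjusted p = 0.032). Each made up 11.1% of that list, beside 5.09% of all genes called higher and 9.58% called lower. Traf3 passed in the full set but did not pass with any sample left out (adjusted p from 0.0509 to 0.102) or with the replicate number as a block (adjusted p = 0.0719).

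Markers of other cell types in the cultures were compared in the same fit, since leukocytes also express interferon-stimulated genes. Of 12 leukocyte markers 1 was called lower (Lyz2, -0.52) and 1 higher (Laptm5, 0.28). Each made up 8.33% of the list, beside 9.58% of all genes called lower and 5.09% called higher. The 12 markers had a median of -0.17, and 8 of the 12 lay below the 40th percentile of control signal. Their summed level on the linear scale was 689 to 776 in control samples and 578 to 665 with hCT1. Sums of this kind are led by the brightest genes, here Lyz2 (mean 7.93 in control and 7.41 with hCT1). They do not show a fall in each marker. Of the 12, 8 had a negative log2 fold change, among them Tyrobp (-0.27), Fcer1g (-0.27), Aif1 (-0.19) and Cd14 (-0.18), which did not pass, and at an unadjusted p under 0.05 by limma 4 were lower and 1 higher. Ptprc had a log2 fold change of -0.02 at percentile 16.4 of control signal, where values may be background. Laptm5 did not pass without control replicate 2 (0.29, adjusted p = 0.107), control replicate 3 (0.21, adjusted p = 0.0874), hCT1 replicate 1 (0.28, adjusted p = 0.103), hCT1 replicate 2 (0.32, adjusted p = 0.0651) or hCT1 replicate 3 (0.24, adjusted p = 0.133). The summed level of 8 cardiomyocyte markers was 18000 to 18400 in control and 16400 to 17300 with hCT1, that of 8 fibroblast markers 8670 to 9170 and 8250 to 8440, and that of 6 smooth muscle and pericyte markers 10100 to 10500 and 9680 to 9890. That of 7 endothelial markers was 1140 to 1280 and 1140 to 1190. Of these lists, 3 of 8 cardiomyocyte markers (Tnni3, Myl2 and Myh6, 37.5%) and 2 of 6 smooth muscle markers (Myh11 and Tagln, 33.3%) were called lower. So were 1 of 7 endothelial markers (Emcn, 14.3%) and 0 fibroblast markers, beside 9.58% of all genes. The share of cardiomyocyte markers equalled that of the interferon-stimulated genes (37.5%). A marker called higher was held by 0 of the 4 lists. At an unadjusted p under 0.05 by limma, 4 cardiomyocyte markers were lower and 0 higher, and 2 fibroblast markers were lower and 1 higher. Over all 14506 genes, 2592 were lower and 1735 higher at that threshold. Emcn (-0.47) lost its call when control replicate 2 (-0.36, adjusted p = 0.0637), control replicate 3 (-0.45, adjusted p = 0.0517), hCT1 replicate 1 (-0.47, adjusted p = 0.057) or hCT1 replicate 2 (-0.40, adjusted p = 0.0739) was left out. The part of these marker levels in the falls of the interferon-stimulated genes was not tested.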

How the data were processed

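The authors processed the arrays with RMA in Affymetrix Expression Console (versions not given in the sources used here) and deposited log2 values per probe set, which were used as deposited. RMA corrects background, equalises the distributions of the arrays and combines probes into probe sets; it compresses changes of dim probe sets, and the number of arrays limits the precision. Of 29215 probe sets, 15310 had exactly 1 symbol, 323 had several and 13582 were unnamed; 15279 of the 15310 matched RefSeq (GRCr8) by Entrez identifier. The sources used here name no build for the array values, and coordinates belong to the RefSeq promoters only.

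A 2-sided moderated test without trend (limma 3.58.1, run under R 4.3.3) was fitted to all 15310 probe sets, with statmod 1.5.0 for the robust alternative. On simulated data over these probe sets the step recovered 65 of 67 changes of 1, 48 of 67 of 0.5 and 15 of 66 of 0.25 on the log2 scale, with 8 false calls among 136. The simulation changed a far smaller share of probe sets than the fit to the data called, so these figures need not hold for the data. All measured genes of the list were named, and of the pathway lists those past the threshold; other genes named beside them were picked with their values in view. The members and lists were chosen with earlier results of these data known. The alternatives were eBayes with trend and robust, a filter on dim probe sets, all probe sets, other normalizations, averaged probe sets and array weights. Further ones were a replicate block, a one-way test, a threshold of 0.01 and leaving out each sample. The paper names a one-way test for comparisons of several groups and none for the arrays in particular.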

Additional observations from a re-analysis of the deposited data

How the results depend on the processing

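The count of interferon-stimulated genes called lower was 18 and stayed between 12 and 22 under every alternative run. The 12 were those after the filter on dim probe sets, which removed 17 of the 48 genes. Among the genes removed were Ifit1, Dhx58, Rtp4, Oas1a, Oas1b, Nmi and Isg15, all called lower in the main fit. The 12 also included Sp110, which the main fit did not call. With a sample left out, the count called lower was 16 to 18. Of the 20 genes called, 13 kept direction and call under every alternative in which they were measured. Its median log2 fold change stayed between -0.16 and -0.11. The count called higher was 2; it was 1 over all probe sets and with the replicate block, 4 by the one-way test without adjustment, 0 by that test with adjustment, 0 at a threshold of 0.01, and 0 to 2 with a sample left out. By limma at an unadjusted p under 0.05, 1735 of all 14506 genes were higher and 2592 lower. At that threshold, 4 of the 48 interferon-stimulated genes were higher and 24 lower. The cause of these changes was not tested.

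The one-way test with adjustment no longer called Isg20, Nmi, Ifih1, Oas1b, Ifitm3 and Ifngr2, and called 14 genes lower. The replicate block changed no call of the list besides Ifitm3. The numbers were not taken to pair the samples, since they are not stated to mark shared cultures. Samples of the same number correlated in their deviations from the group means at r of -0.025, 0.046 and -0.285. Those of unlike number correlated at r of -0.18 to 0.206. With 3 samples a group, these values cannot settle whether the samples were paired.

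Over all probe sets, 1506 were lower and 762 higher; the counts were 2467 and 1483 by the one-way test without adjustment, 675 and 376 with adjustment, 563 and 296 at a threshold of 0.01, and 803 to 1810 and 417 to 873 with a sample left out; 490 were higher with the replicate block. Pathway genes called lower (4) were 7 after the filter on dim probe sets, with array weights and by the one-way test without adjustment, 2 over all probe sets, after quantile normalization and with the replicate block, 1 by the one-way test with adjustment and at a threshold of 0.01, and 1 to 5 with a sample left out; those called higher (7) were 11 by the one-way test without adjustment and 5 to 7 with a sample left out.

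Signs turned only for genes that did not pass in any of these cases. Ifit2 was at 0.051 after quantile normalization and 0.003 after centring, Ifitm2 at 0.01 after centring, and Tlr3 at -0.01 with array weights. With a sample left out, the log2 fold change ranged from -0.098 to 0.038 for Ifit2, -0.063 to 0.032 for Ifitm2, -0.032 to 0.058 for Lgals3bp, -0.065 to 0.152 for Tlr3, -0.059 to 0.122 for Gbp5, -0.169 to 0.041 for Herc6 and -0.139 to 0.079 for Rsad2.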
